A study of Homo sapiens with 6 samples.

Results

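10 genes of the cGAS-STING pathway were described in 6 RNA-seq libraries of the SKOV3 line (SK-OV-3), which is grown from an ovarian carcinoma and is long established in culture. They were chosen by symbol among the 60498 genes of the count table, and 10 of 10 were found. They comprise the DNA sensors CGAS and IFI16, the adaptor STING1, the kinases TBK1 and IKBKE, the enzymes TREX1, SAMHD1 and ENPP1, and the membrane transporter and channel genes SLC19A1 and LRRC8A. The parent cells carry 1 WT and 1 HAQ haplotype of STING1 (WT/HAQ), HAQ being a common haplotype with several amino acid changes. In the other lines, CRISPR/Cas9 with a pair of guide RNAs beside the coding sequence removed 1 allele, which left WT/- or HAQ/-. Each edited line was a single clone, isolated by limiting dilution after lentiviral delivery of Cas9 and puromycin selection. The haplotype and the clone therefore cannot be told apart. Each line gave 1 control library and 1 library after cGAMP at 10 μg/mL for 30 min and 4 h of rest. The dinucleotide was delivered through digitonin-permeabilized membranes, and the handling of the control cells is not given in the sources used here.

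Double-stranded DNA in the cytosol activates cGAS, which makes cGAMP, the cyclic dinucleotide that binds STING1 on the endoplasmic reticulum. Bound STING1 moves to the Golgi and recruits TBK1 and its relative IKKε (IKBKE), which phosphorylate IRF3, and interferon and interferon-stimulated genes follow. Around this core, TREX1 degrades DNA before cGAS can meet it, ENPP1 hydrolyses extracellular cGAMP, and SLC19A1 and channels built on LRRC8A carry cGAMP across the plasma membrane.

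SAMHD1, IFI16 and STING1 rose with cGAMP across the 3 lines by edgeR's quasi-likelihood test, which called no other of the 9 testable genes. DESeq2's Wald test also called LRRC8A, as lower (log2 difference -0.50, adjusted p = 0.0234). SAMHD1 rose 14.0-fold on average, IFI16 4.17-fold and STING1 2.02-fold, the last called in 3 of 8 alternatives against 7 of 8 for each of the others. CGAS was close to absent in every library. Between the lines, IKBKE was 5.44-fold higher in the WT/- clone than in the parent. STING1 was lower than in the parent in both clones, each made by removing 1 STING1 allele. TBK1 and IKBKE were lower in HAQ/- than in WT/-.

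Values are estimated counts, rounded and scaled by the TMM method (normalized counts), with 95% counting intervals that cover counting error only. The totals ran from 12444791 to 17608427 counts. A gene was tested if its mean was at least 10 counts, which kept 15126 genes and all members but CGAS. The 9 epithelial markers examined all had a mean of at least 10 counts, with a summed level of 72640 to 112912, of which ERBB2 alone made up 58.7% to 77.4%, whereas the 6 leukocyte markers summed to between 1.87 and 8.01. WT1 ran from 1.87 to 23.8 normalized counts and MUC16 from 0.872 to 68.4, far below the other epithelial markers. Each was under 3 counts in 1 control library, WT1 in WT/- and MUC16 in HAQ/-. KRT19 was 414 and 364 in the control libraries of HAQ/- and WT/- against 5630 in that of WT/HAQ. Of the 9 markers, only PAX8 in WT/- (9391 against 6751) and ERBB2 in HAQ/- (69247 against 67744) exceeded the WT/HAQ control in the control libraries. The 3 endothelial markers summed to between 9.72 and 39.2. Of the 3 fibroblast markers, COL1A1 and DCN were expressed in every library, and PDGFRB was at or under 3 counts in all of them.

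The promoters of SAMHD1 and IFI16 are shown because these were the most strongly raised members. They are the parts of the RefSeq windows (build GRCh38.p14, from 250 bases before to 50 bases after a transcript start) that lie before the RefSeq start of that window and outside every annotated exon. The IFI16 sequence, from 1 of its 2 windows, is 235 bases on the plus strand, chr1:159009657-159009891, and lies within the annotated span of the gene, in intronic sequence of transcripts that start further upstream. The SAMHD1 sequence is 65 bases on the minus strand, chr20:36951894-36951958, and lies before the outermost start of the gene. Capitals mark GAAA, or TTTC for the other strand, the repeated unit of the motif bound by interferon regulatory factors.
IFI16: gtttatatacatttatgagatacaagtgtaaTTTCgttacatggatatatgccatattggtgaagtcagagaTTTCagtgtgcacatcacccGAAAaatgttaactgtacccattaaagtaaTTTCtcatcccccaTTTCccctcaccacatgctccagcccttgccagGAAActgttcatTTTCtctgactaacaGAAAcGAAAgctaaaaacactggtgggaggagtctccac
SAMHD1: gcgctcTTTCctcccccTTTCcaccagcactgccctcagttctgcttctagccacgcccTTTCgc
The printed IFI16 window held 11 of these units in its 300 bases, the other IFI16 window 4 and the SAMHD1 window 3, with a median of 3 over the 35116 promoters of the table. The full core of the interferon-stimulated response element, which is GAAA followed by any 2 bases and GAAA on either strand, was in neither, nor in the other IFI16 window, and it was in 3.57% of all promoters. Among the 13 windows of the 8 members in the table it was found once, in 1 of the 2 windows of LRRC8A, on the minus strand from base 4 to base 13 after the start. The gamma-activated site TTCNNNGAA, present in 7.66% of all promoters, was found once, in 1 of the 4 windows of SLC19A1. The unit was marked after the full motifs had been searched.

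**Figure D1:**
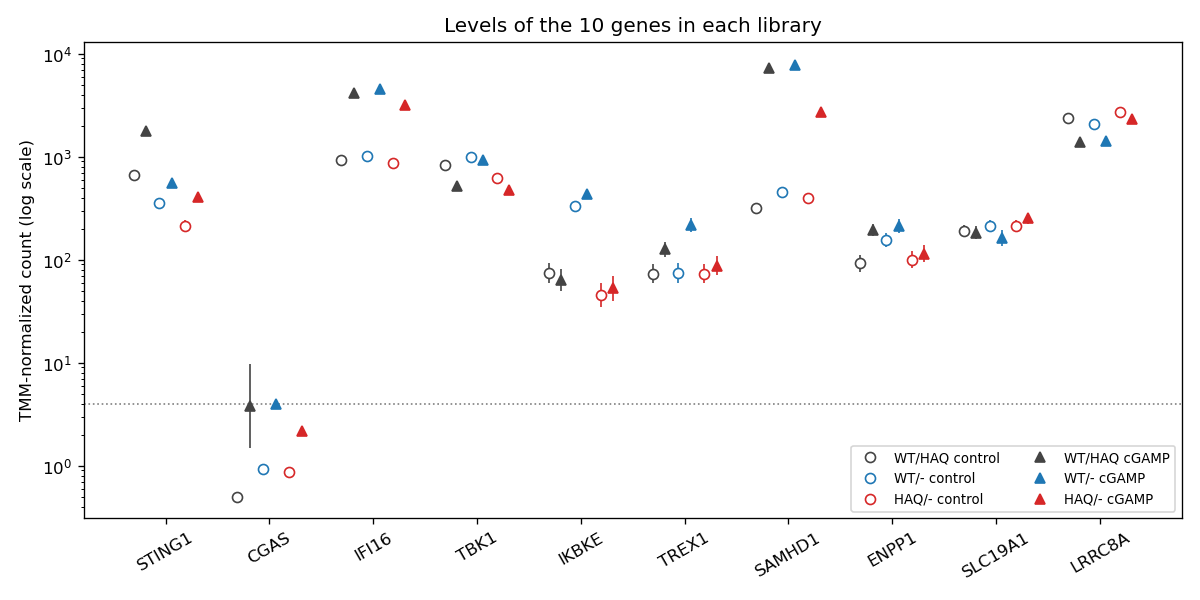
TMM-normalized counts (log axis) of the 10 genes in the 6 libraries, with open circles for control, filled triangles for cGAMP, colors for the lines and bars for 95% Wilson counting intervals. The dotted line is the highest level that 3 counts reach in a library (4.01), CGAS points at 3 counts or fewer carry no interval, and its 0 in the WT/HAQ control is drawn at the bottom of the axis. SAMHD1 and IFI16 separate by treatment in all lines, and IKBKE separates WT/- from the others.

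Per kilobase of the canonical transcript, LRRC8A was the most abundant of the genes in the WT/HAQ control, at 543 normalized counts (523 to 564). IFI16 at 320 (301 to 340), STING1 at 308 (287 to 331) and TBK1 at 277 (260 to 295) followed, and the intervals of each neighboring pair among these 3 overlapped. SAMHD1 at 68.4 (61.7 to 75.9) and TREX1 at 66.9 (54.0 to 83.0) could not be ordered. SLC19A1 at 37.9 (33.2 to 43.3), IKBKE at 22.9 (18.5 to 28.4) and ENPP1 at 12.4 (10.2 to 15.0) came below them, without overlap, and CGAS was last at 0. The order depends on the length used. Per kilobase of all annotated exons, TREX1 at 50.7 lay above SAMHD1 at 29.4, STING1 at 139 lay well above TBK1 at 56.8, and IKBKE at 19.6 lay above SLC19A1 at 16.8. After cGAMP, again by canonical length, the order in WT/HAQ was led by SAMHD1 at 1568 per kilobase (1534 to 1604), then IFI16 at 1430.5 (1389 to 1474) and STING1 at 820.4 (784 to 858), with LRRC8A next at 322 (306 to 339). In HAQ/- after cGAMP, IFI16 led at 1102 per kilobase, above SAMHD1 at 582 and LRRC8A at 535. Per kilobase of all annotated exons, the order after cGAMP changed as well. IFI16 at 779 then lay above SAMHD1 at 673 in WT/HAQ, and LRRC8A at 445 lay above SAMHD1 at 250 in HAQ/-.

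The sensors were compared first. CGAS (MB21D1 in the table, ENSG00000164430) is encoded on the minus strand of chromosome 6 (GRCh38 positions 73413515 to 73452297). It had 0 counts in the control and 4 in the cGAMP library of the parent, 1 and 3 in WT/-, and 1 and 2 for HAQ/-. These are 2 counts in 51691865 over the control libraries and 9 in 42851026 over the cGAMP libraries. A count of 0 was taken to allow up to 3 counts, the floor used throughout, which is 2.65 normalized counts in the WT/HAQ control, so the level was at or near the detection limit in all libraries. No fold was taken in the clones, where neither library exceeded 3 counts, and with all genes of a mean of at least 1 count tested, CGAS had an edgeR adjusted p of 0.381.

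IFI16 (ENSG00000163565, plus strand of chromosome 1, 158999968 to 159055155) encodes a DNA-binding protein of the PYHIN family that acts with cGAS and STING1. It was at 922 normalized counts in the control and 4124 in the cGAMP library of the parent, at 1019 and 4512 in WT/-, and at 871 and 3177 for HAQ/-. The 3 control libraries lay within 871 to 1019 and the cGAMP libraries within 3177 to 4512. For the parent, WT/- and HAQ/- in turn, the folds were 4.47 (4.18 to 4.79), 4.43 (4.14 to 4.74) and 3.65 (3.40 to 3.92). In the edgeR quasi-likelihood test with the line as a block, IFI16 rose by 2.06 ± 0.09 on the log2 scale (SE, adjusted p = 0.00286), and without the WT/- line the adjusted p was 0.105. Its log2 folds in WT/HAQ and WT/- differed by 0.01 (-0.12 to 0.15), whereas that in WT/- exceeded that in HAQ/- by 0.28 (0.14 to 0.42). These intervals cover counting error, with no replicate behind them.

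STING1 (TMEM173 in the table, ENSG00000184584) is a gene of 8 exons on the minus strand of chromosome 5, from 139475533 to 139482935. It was at 669 normalized counts in the control and 1780.2 in the cGAMP library of the parent, at 353 and 553 in WT/-, and at 213 and 403 for HAQ/-. The parent was highest in each treatment, and the cGAMP libraries of both clones lay below the WT/HAQ control. The increase with cGAMP averaged 1.01 ± 0.16 on the log2 scale (SE, adjusted p = 0.0447). The call is close to the threshold, and the adjusted p was 0.0916 without the WT/HAQ line, 0.227 without the WT/- line, 0.00609 without the HAQ/- line and 0.598 with the line left out of the model. With DESeq2 size factors it was 0.0505, as it was over genes with a mean of at least 50 counts. By counting error, the log2 fold in the parent exceeded that in WT/- by 0.76 (0.53 to 0.998) and that in HAQ/- by 0.49 (0.23 to 0.75). The difference between the clones, WT/- minus HAQ/-, was -0.27 with an interval from -0.58 to 0.04.

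By their labels, 1 clone keeps the WT and the other the HAQ haplotype of the parent, and their STING1 levels were added. The number of STING1 copies in these lines was not measured here. In the control libraries the sum was 566 normalized counts, 0.845 of the parent's 669 (0.760 to 0.940). After cGAMP the sum was 956 against 1780.2 in the parent, a ratio of 0.537 (0.494 to 0.584). The treated clones thus summed to less of the parent's level than the control clones did. WT/- had 0.527 of the parent's level in control and 0.311 after cGAMP, and HAQ/- had 0.318 and 0.226. In bulk RNA, fewer expressing cells and less RNA per cell cannot be told apart.

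**Figure D2:**
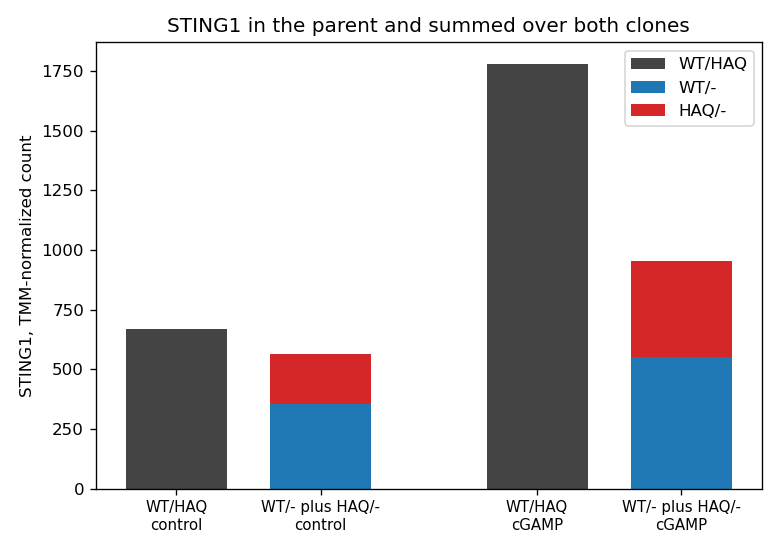
STING1 in TMM-normalized counts (linear axis from 0) in the parent and, stacked, in WT/- and HAQ/-, for control (left) and cGAMP (right), with 1 library per bar segment. The stack reached 0.845 of the parent's bar in control and 0.537 after cGAMP.

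The genes whose 6-library pattern came closest to that of STING1, by the root mean square difference of centered log2 levels, were GLDC at 0.26, NKX2-8 at 0.28, WIPF3 at 0.28, RUNX3 at 0.32 and PTPRD at 0.32. GLDC encodes a mitochondrial enzyme of glycine breakdown and PTPRD a receptor tyrosine phosphatase. PTPRD, the most abundant of them, was at 301 and 673 normalized counts in the parent, 189 and 278 in WT/-, and 168 and 229 for HAQ/-. RUNX3 ran between 1.74 and 27.6 normalized counts, NKX2-8 between 5.23 and 29.5, and WIPF3 between 5.23 and 57.0, so these patterns rest on few reads. Ranked by Pearson correlation across the same libraries, PTPRD was the 1 gene of the 5 that remained.

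Neither kinase was raised past 1.5-fold in any line. TBK1 (ENSG00000183735, plus strand of chromosome 12, 64452090 to 64502114) encodes the kinase that STING1 recruits. It was at 836 normalized counts in control and 523 after cGAMP in the parent, 997 and 924 in WT/-, and 626 and 475 for HAQ/-. Every cGAMP library was below the control of its own line. The log2 folds were -0.68 (-0.83 to -0.53), -0.11 (-0.25 to 0.03) and -0.40 (-0.57 to -0.23), and their average of -0.39 ± 0.12 (SE) did not pass the test (adjusted p = 0.131).

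IKBKE (ENSG00000263528, plus strand of chromosome 1, 206470476 to 206496889), the inducible relative of TBK1, was at 74.2 and 63.7 normalized counts in the parent, 330.4 and 430.1 in WT/-, and 45.4 and 52.5 for HAQ/-. Both WT/- libraries lay above all others. The cGAMP log2 folds were -0.22 (-0.68 to 0.24), 0.38 (0.16 to 0.60) and 0.21 (-0.35 to 0.77), with an average of 0.16 ± 0.16 (SE, adjusted p = 0.605). Of the exon bases of IKBKE, 4.12% overlap an antisense gene that had at most 7 counts in a library.

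Of the enzymes, SAMHD1 (ENSG00000101347, minus strand of chromosome 20, 36890229 to 36951893) gave the largest change among the members. It encodes a dNTP triphosphohydrolase that restricts retroviruses and limits the release of DNA from stalled replication forks. It was at 318 normalized counts in control and 7292 after cGAMP in the parent, 450 and 7728 in WT/-, and 396 and 2704 for HAQ/-. All cGAMP libraries lay above all controls, and the treated HAQ/- library lay below the other treated libraries. The parent had a fold of 22.9 (20.6 to 25.5), the WT/- clone 17.2 (15.7 to 18.9) and the HAQ/- clone 6.83 (6.18 to 7.54). The average increase was 3.80 ± 0.37 on the log2 scale (SE, adjusted p = 0.0141), and without the WT/- line the adjusted p was 0.243. By counting error, the log2 fold in WT/- exceeded that in HAQ/- by 1.33 (1.13 to 1.53), and that in WT/HAQ exceeded that in WT/- by 0.42 (0.21 to 0.62). TLDC2, whose exons cover 9.86% of those of SAMHD1 on the other strand, had 2, 5 and 2 counts in the control libraries and 62, 90 and 36 after cGAMP. The use of strand in counting is not given in the sources used here, so reads of this overlap cannot be assigned.

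TREX1 (ENSG00000213689, plus strand of chromosome 3, 48465811 to 48467645), the main cytosolic DNA exonuclease, was at 73.4, 74.7 and 73.3 normalized counts in the control libraries of WT/HAQ, WT/- and HAQ/-. After cGAMP it was at 126, 216 and 87.6. The controls differed by less than counting error, and the cGAMP libraries spread over a wider range. The folds were 1.72 (1.31 to 2.26), 2.90 (2.22 to 3.79) and 1.19 (0.881 to 1.62), and the average log2 difference was 0.87 ± 0.27 (SE, adjusted p = 0.127). Without the HAQ/- line it was 1.16 with an adjusted p of 0.0142. All exon bases of TREX1 (100%) lie within those of ATRIP on the same strand, so the split of their reads is uncertain. ATRIP had 85 and 80, 64 and 59, and 68 and 76 counts in the control and cGAMP libraries of WT/HAQ, WT/- and HAQ/-.

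ENPP1 (ENSG00000197594, plus strand of chromosome 6, 131808016 to 131895155), the ectonucleotidase that cleaves cGAMP, was at 91.9 and 195 normalized counts in the parent, 156 and 211 in WT/-, and 100.3 and 114 for HAQ/-. It was higher after cGAMP within each line, while the WT/- control lay above the treated HAQ/- library. The folds were 2.12 (1.67 to 2.68), 1.35 (1.09 to 1.68) and 1.13 (0.871 to 1.48). The average log2 difference of 0.57 ± 0.20 (SE) did not pass the test (adjusted p = 0.161).

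The transport genes showed no increase past 1.5-fold. SLC19A1 (ENSG00000173638, minus strand of chromosome 21, 45493572 to 45573365), the reduced folate carrier and a cGAMP importer, was at 189 and 182 normalized counts in the parent, 212 and 163 in WT/-, and 214 and 252 for HAQ/-. Its log2 folds of -0.05 (-0.33 to 0.23), -0.38 (-0.70 to -0.06) and 0.24 (-0.02 to 0.50) averaged -0.05 ± 0.15 (SE, adjusted p = 0.856). COL18A1, which shares 13.9% of the exon bases of SLC19A1 on the other strand, had 11926 to 20030 counts, far more than the 122 to 245 of SLC19A1.

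LRRC8A (ENSG00000136802, plus strand of chromosome 9, 128882133 to 128918039), the obligatory subunit of volume-regulated anion channels, was at 2353 and 1397 normalized counts in the parent, 2083 and 1413 in WT/-, and 2704 and 2321 for HAQ/-. Each cGAMP library was below its control, and the treated HAQ/- library overlapped the control range of the other lines. The log2 folds were -0.75 (-0.84 to -0.66), -0.56 (-0.67 to -0.45) and -0.22 (-0.30 to -0.14). Their average of -0.51 ± 0.12 (SE) did not pass the test (adjusted p = 0.0792), and without the HAQ/- line it was -0.66 (adjusted p = 0.00270). The partner subunit LRRC8D, named after its values were seen, had log2 folds of -1.09, -0.90 and -0.13, with an average of -0.70 ± 0.20 (SE, adjusted p = 0.113). The other subunits LRRC8B, LRRC8C and LRRC8E, also outside the naming rule, had average log2 differences of -0.30, 0.17 and 0.06, with adjusted p of 0.251, 0.268 and 0.804.

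**Figure D3:**
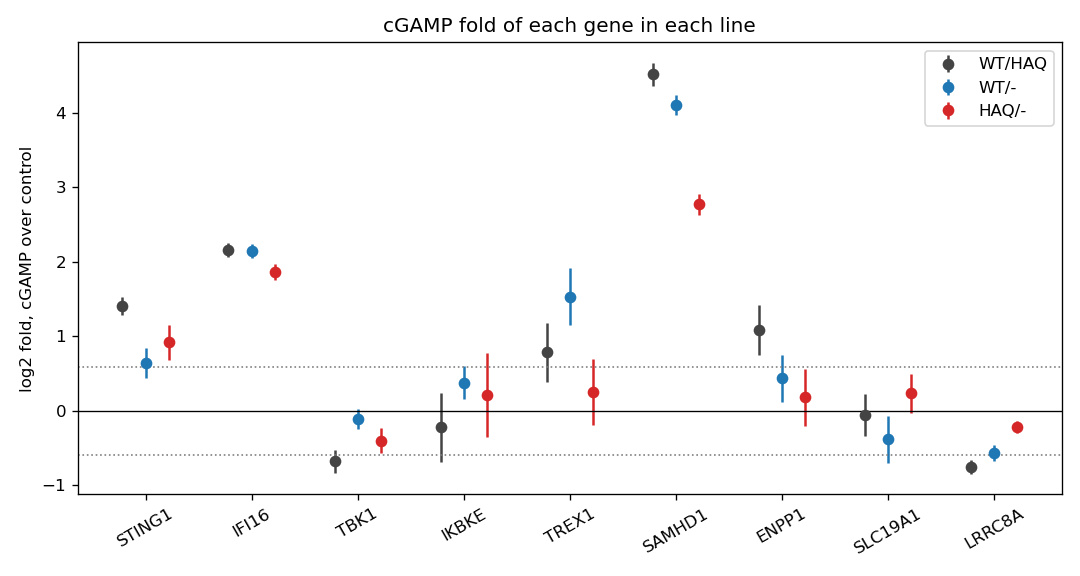
log2 fold of the cGAMP over the control library of the same line for the 9 tested genes, with 95% counting intervals and 1 library per condition. Dotted lines mark 1.5-fold in either direction. SAMHD1 runs from 2.77 in HAQ/- to 4.52 in WT/HAQ, and TBK1 and LRRC8A lie below 0 in all lines.

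Counted over the members, 5 of 9 were raised at least 1.5-fold in WT/HAQ, against 12.8% of all tested genes. In WT/- 4 of 9 were raised, against 11.9%, and in HAQ/- 3 of 9, against 6.75%. STING1, IFI16 and SAMHD1 were raised in each line, TREX1 also in WT/HAQ and WT/-, and ENPP1 in WT/HAQ. TBK1 and LRRC8A were lowered at least 1.5-fold in WT/HAQ, against 12.3% of all tested genes. No member was lowered in WT/- (8.77% of all tested genes) or in HAQ/- (5.76%). At the edge of the limit, STING1 in WT/- was 1.57-fold higher and LRRC8A in WT/- was 1.47-fold lower. The median log2 fold of the members was 0.78, 0.44 and 0.24 in the parent, WT/- and HAQ/-, with -0.01, -0.0001 and -0.01 over all tested genes. In the edgeR test, 3 of 9 were higher, against 2.27% of all tested genes, and 0 of 9 lower, against 0.959%. At an unadjusted p under 0.05, 7 of 9 passed, 2 of them lower, against 25.3% and 13.7% of all tested genes. DESeq2's Wald test called 3 higher and 1 lower, against 5.20% and 3.93%. Without the WT/- line, edgeR called 0 members and 0 genes of the whole table. Without the HAQ/- line it called 4 higher and 1 lower, against 8.64% and 8.66% of all tested genes.

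**Figure D4:**
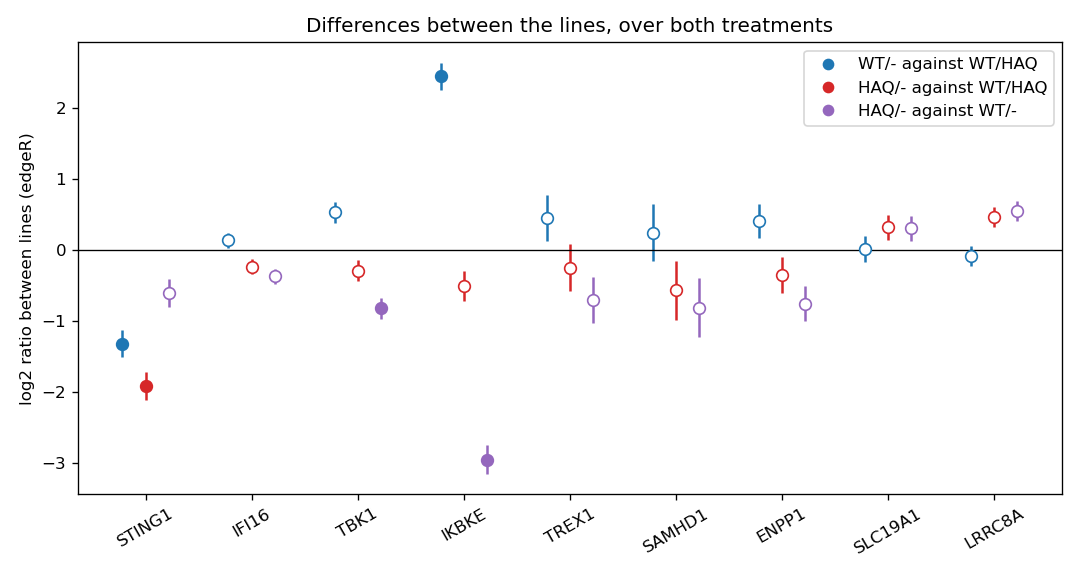
log2 ratio between lines for the 9 tested genes, fitted by edgeR over both treatments, with bars for the standard error and filled points for an adjusted p under 0.05. IKBKE stands at 2.44 in WT/- against WT/HAQ and at -2.95 in HAQ/- against WT/-, and STING1 lies below 0 in all 3 contrasts.

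The lines were compared with the treatment as a block, which tests the average difference between each pair of lines over control and cGAMP. In WT/- against WT/HAQ, IKBKE was higher by 2.44 ± 0.19 on the log2 scale (SE, adjusted p = 0.00724), and STING1 was lower, with -1.32 ± 0.19 (adjusted p = 0.0247). These are 1 member higher and 1 lower, against 4.99% and 3.81% of all tested genes. In HAQ/- against WT/HAQ, STING1 was lower, with -1.92 ± 0.20 (adjusted p = 0.0273), and no member was higher, against 0.846% and 0.377% of all tested genes. In HAQ/- against WT/-, IKBKE was lower, with -2.95 ± 0.20 (adjusted p = 0.00272), as was TBK1, with -0.82 ± 0.15 (adjusted p = 0.0239). These 2 of 9 stand against 11.1% of all tested genes lower in that contrast, and 0 of 9 against 7.95% higher. The STING1 ratio of HAQ/- to WT/- was -0.60 ± 0.20 on the log2 scale (adjusted p = 0.0942). At an unadjusted p under 0.05, 1 member was higher in HAQ/- against WT/HAQ and 1 against WT/-, with 8.03% and 16.2% of all tested genes. DESeq2 called 0 and 1 higher, with 1.28% and 5.91% of all genes. With the treatment left out of the model, the log2 ratios of STING1 to the parent were -1.44 in WT/- (adjusted p = 0.270) and -1.99 in HAQ/- (adjusted p = 0.355), and that of TBK1 in HAQ/- against WT/- was -0.80 (adjusted p = 0.148). These calls were lost at about the same size, and those of IKBKE were not. These contrasts share libraries, and with 1 clone per genotype the p-values concern these lines only. Those of STING1 against the parent compare clones made by removing 1 STING1 allele with the line they came from.

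The difference in IKBKE was present in both treatments. The ratio of WT/- to WT/HAQ was 4.45 (3.51 to 5.64) in control and 6.75 (5.19 to 8.78) after cGAMP. The genes around IKBKE were then examined, a step added after its values were seen. Over the 19 other tested genes within 1 Mb, the median log2 ratio of WT/- to WT/HAQ was 0.28, with a range from -1.18 (CD55) to 1.49 (RASSF5), and 3 of 19 were called higher and 1 lower, against 4.99% and 3.81% of all tested genes. The adjacent genes were SRGAP2 at 0.90 (adjusted p = 0.0368) and RASSF5 at 1.49 (adjusted p = 0.0533). In HAQ/- against WT/-, the median over the same 19 genes was -0.26. There 1 was called higher and 5 lower, against 7.95% and 11.1% of all tested genes. In HAQ/- against WT/HAQ the median was 0.02, with 0 higher and 1 lower, against 0.377% and 0.846%. Over the 23 other tested genes within 1 Mb of STING1, none was called by edgeR in either clone against the parent. The median log2 ratio was -0.08 in WT/-, with a range from -0.53 to 1.51. In HAQ/- it was 0.10, with a range from -1.30 to 0.97. At an unadjusted p under 0.05, 7 and 4 of the 23 passed, with 28.8% and 18.7% of all tested genes. DESeq2 called 2 and 0, with 8.69% and 3.96%. In HAQ/- against WT/-, edgeR called 2 of these 23 genes higher and 1 lower, against 7.95% and 11.1% of all tested genes. Their log2 ratios there ran from -2.82 to 0.71.

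The other genes of the pathway were described from 5 lists of 75 genes, all in the table, of which 68 were tested. With cGAMP, 3 of 68 were called higher and 2 lower, against 2.27% and 0.959% of all tested genes. In WT/HAQ 7 of 68 were raised and 5 lowered at least 1.5-fold, against 12.8% and 12.3% of all tested genes. These counts were 7 and 3 in WT/-, against 11.9% and 8.77%, and 4 and 0 in HAQ/-, against 6.75% and 5.76%, and the median log2 folds were -0.001, -0.006 and 0.02. Of 17 tested DNA sensors and cofactors, AIM2, the PYHIN sensor that builds an inflammasome, was the 1 called. It had 10 counts in control and 424 after cGAMP in the parent, 10 and 144 in WT/-, and 3 and 19 for HAQ/-, and it rose by 4.75 ± 0.38 on the log2 scale (SE, adjusted p = 0.00924). Like IFI16 it belongs to the gene cluster on chromosome 1.

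Of 23 tested genes of STING1 trafficking and control, 2 rose and 1 fell. TRIM56, a ubiquitin ligase of the pathway, rose by 1.07 ± 0.11 (SE, adjusted p = 0.0159) and was 2.25-, 2.39- and 1.73-fold higher in WT/HAQ, WT/- and HAQ/-. UNC93B1, a chaperone of endosomal receptors that also binds STING1, rose by 0.50 ± 0.07 (adjusted p = 0.0410). INSIG1, a sterol-regulated protein of the endoplasmic reticulum, fell, with a log2 difference of -0.73 ± 0.11 (adjusted p = 0.0439). Among 10 kinase adaptors and next steps, IRF3, the transcription factor that TBK1 phosphorylates, fell, with -0.49 ± 0.08 (adjusted p = 0.0458) and log2 folds of -0.56, -0.56 and -0.34 in the lines. None of the 10 tested genes of cGAMP transport and breakdown or of the 8 tested genes of DNA and RNA:DNA hybrid clearance was called by edgeR. At an unadjusted p under 0.05, 3 and 1 passed, with 25.3% of all tested genes, and DESeq2 called 2 and 0, with 9.14%. Without the WT/- line, where no gene of the whole table was called, none of these 5 calls held, while the log2 differences stayed close, from 5.02 for AIM2 (adjusted p = 0.202) to -0.71 for INSIG1 (adjusted p = 0.342), with the highest adjusted p of 0.362 for IRF3 (-0.44). Without the HAQ/- line all 5 held, and without the WT/HAQ line AIM2 alone held (adjusted p = 0.0456).

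**Figure D5:**
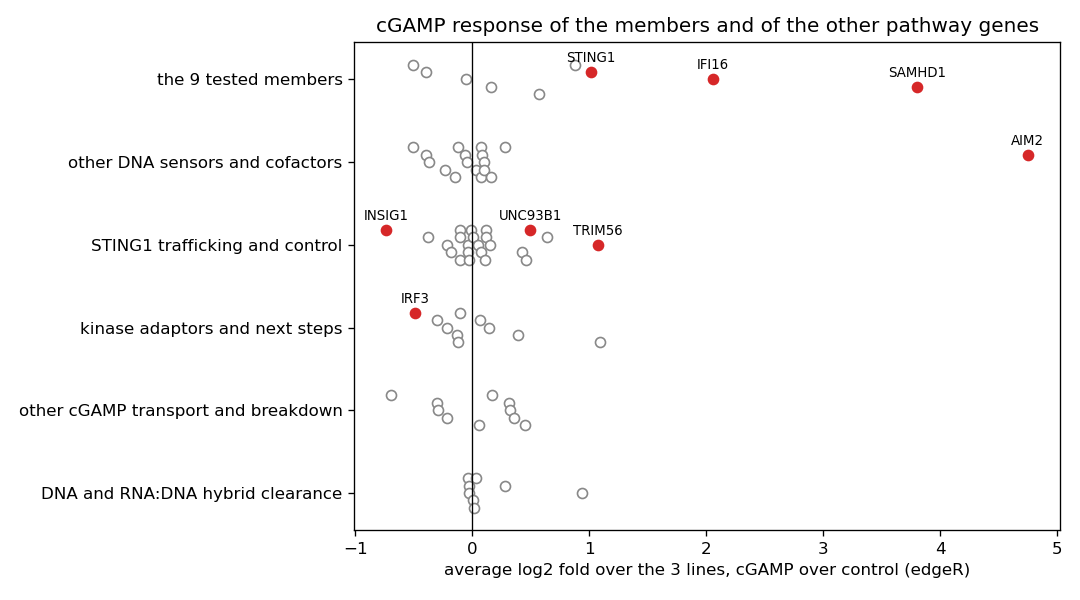
Average log2 fold over the 3 lines, cGAMP over control (edgeR), for the 9 tested members and the 68 tested genes of 5 pathway lists, 1 point per gene. Filled points have an adjusted p under 0.05, and vertical offsets within a row only keep points apart. The called members lie between 1.01 and 3.80, and AIM2 lies at 4.75.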

How the data were processed

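Poly(A) RNA of 6 libraries was sequenced in 150 bp pairs. The authors deposited estimated counts (RSEM expected counts) per Ensembl gene, without normalization. The submitters' processing notes name GRCh38 (hg38), STAR and RSEM, and the annotation and strand setting are not given in the sources used here. All 6 columns were matched to samples, with 0 left over.

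Counts were rounded and scaled by TMM over 15126 genes with a mean of at least 10 (factors 0.940 to 1.052), giving normalized counts. Folds pair the libraries of a line, with counts under 3 set to 3 and 95% Wilson intervals. The test was edgeR 4.0.16 (R 4.3.3), quasi-likelihood, with line and treatment as terms and 2 residual degrees of freedom, adjusted by Benjamini-Hochberg over all tested genes. An adjusted p under 0.05 was a call. Each SE was derived from the test, as the absolute log2 difference over the square root of its F statistic, and is not a separate measure of spread. DESeq2 1.42.0 served as an alternative, and Python 3.11.15 with numpy 2.4.6, pandas 2.3.3 and scipy 1.17.1 for the rest. The lines stand in for replicates of the treatment, and nothing repeats a condition. The residual spread of a gene is thus the difference in its treatment effect between lines. edgeR draws that spread toward a trend over all tested genes, so the p-values rest in part on other genes. They concern these lines only. Positions are from GENCODE release 44. The edgeR test was tried on simulated counts with a spread shared by all genes and no line-by-treatment interaction. The fold step was tried on simulated Poisson counts. Both settings are simpler than these data.

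The members and lists were chosen with earlier results of these data known. All 10 members are named, with list genes that the test calls or that change at least 2-fold one way in every line, and the 5 genes most like STING1. The other LRRC8 subunits and the neighbors of IKBKE were named after their values were seen. In the table of RefSeq promoters used here, 8 of the 10 members were matched, and promoters of STING1 and CGAS were not analysed here. Alternatives were other scalings, count minimums, fold limits, tests and model terms, and each line left out.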

Additional observations from a re-analysis of the deposited data

How the results depend on the processing

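No condition has a replicate, and the members below about 100 counts (IKBKE, TREX1 and ENPP1 in some libraries) carry wide intervals. With each line left out in turn, between 0 and 4 members were called higher with cGAMP and between 0 and 1 lower. Without the WT/HAQ line, 2 members were called higher and 0 lower, in a fit that called 179 genes in all. Without the WT/- line, 0 members and 0 genes of the whole table were called, and the log2 differences of SAMHD1 and IFI16 were 3.65 (edgeR adjusted p = 0.243) and 2.03 (adjusted p = 0.105). That fit gave 0.10 for SLC19A1 and -0.0047 for IKBKE, both opposite in sign to the values over 3 lines, and the values with 1 line left out ran from -0.21 to 0.10 and from -0.0047 to 0.32. Without the HAQ/- line 4 were called higher, TREX1 being added, and 1 lower, LRRC8A, in a fit that called 2621 genes in all (8.64% higher and 8.66% lower) against 489 with the 3 lines. DESeq2's Wald test also called 1 lower, LRRC8A. With no line block, which pairs the libraries of a line, 2 members were called higher and 0 lower, with 0.383% and 0.0264% of all tested genes, and STING1 was lost at 1.15 (adjusted p = 0.598). The STING1 call was also lost with DESeq2 size factors (adjusted p = 0.0505) and with a mean of at least 50 counts (0.0505). In HAQ/- against WT/-, 1 member was higher, LRRC8A, under DESeq2's Wald test and with a mean of at least 1 or 50 counts. DESeq2 called 5.91% of all genes higher there. With a mean of at least 1 and 50 counts, edgeR called 2858 and 2708 genes in all in that contrast. With the treatment left out of the model, 0 members were lower in either clone against the parent and 1 in HAQ/- against WT/-, in a fit that called 0.873%, 0.0529% and 2.44% of all tested genes lower in WT/- and HAQ/- against the parent and in HAQ/- against WT/-, and IKBKE kept its calls. With a mean of at least 1 count, the log2 ratio of SLC19A1 in WT/- against WT/HAQ was -3.1e-05, on the other side of 0. At 1.2-fold, 2 members were lowered in WT/- and 1 in HAQ/- (22.4% and 17.2% of all tested genes), and 5, 6 and 3 were raised in WT/HAQ, WT/- and HAQ/- (24.1%, 23.0% and 15.4%). At 2-fold, 0 were lowered in WT/HAQ (5.36%), and 4, 3 and 2 were raised (7.37%, 6.57% and 3.10%). With total counts only, 1 was lowered in WT/- (10.3%). With a mean of at least 50 counts, the median log2 fold was 0.0276 for the DNA sensors in WT/HAQ and 0.0372 for the clearance genes in WT/-. Per kilobase of all exons, IKBKE ranked 7 and SLC19A1 8, and TREX1 5 and SAMHD1 6. The ratio of the summed STING1 levels stayed between 0.804 and 0.856 in control and between 0.535 and 0.545 after cGAMP under the scalings tried. The cause of these changes was not tested.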
